A study of Homo sapiens with 7 samples.

Results

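Membrane proteins that move lactate, pyruvate and glucose across the cell surface, or that serve such carriers, were followed after knockdown of the RNA-binding protein RBM15. They were the lactate and pyruvate transporters SLC16A1, SLC16A3 and SLC16A7, the chaperone BSG, and the glucose transporters SLC2A1, SLC2A3 and SLC2A14. These 7 of 62238 genes, with 251 of 625148 exon bins, were found by symbol through their Ensembl identifiers. The group was chosen by measured values of the same libraries, the fall of the reads in a first-exon bin of SLC16A1 after knockdown, so the values of SLC16A1 are given as a description, with no test.

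The study asked how RBM15 controls RNA metabolism in MEG-01, an established human megakaryoblastic leukemia cell line. Its RNA-seq held 1 control library and 2 libraries of stable lines, each with RBM15 knocked down by a different shRNA (shRBM15#1 and shRBM15#2). All 3 were grown in RPMI-1640 with fetal bovine serum to exponential phase, and all 3 were labelled as carrying lentiviral transgenes, while the labels do not say which transgene the control carried. Each library was 1 culture of cells in bulk, so fewer cells of a type and less RNA per cell cannot be told apart. The sequences against RBM15 are shown because an exact match of either in a transporter transcript would bear on every value, and they were found in transcripts of RBM15 and of no other gene among 254413 transcripts, the 115 transcripts of the 7 genes included.
shRBM15#1: gcggaatacaagactctgaa
shRBM15#2: ccaatggttatgccattctt

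Cells that run glycolysis at a high rate take up glucose through facilitative carriers of the SLC2 (GLUT) family and release lactate with a proton through carriers of the SLC16 (MCT) family. SLC16A1 (MCT1) carries lactate in either direction, SLC16A3 (MCT4) is known for lactate export and SLC16A7 (MCT2) for high affinity. BSG (basigin, CD147) brings SLC16A1 and SLC16A3 to the cell surface. SLC2A1 (GLUT1) is the main glucose transporter of red cells and many cultured cells, SLC2A3 (GLUT3) that of neurons and platelets, and SLC2A14 (GLUT14) is a close duplicate of SLC2A3 known from testis.

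Reads on exon bins numbered 41629454 to 53230029 per library, and the share of all reads that fell in no bin was 21.6% in the control, 30.4% in the shRBM15#1 line and 21.9% in the shRBM15#2 line. RBM15 itself was at 80.2 CPM (counts scaled to the TMM-adjusted size of the library) in the control, 43.7 in the shRBM15#1 line and 40.7 in the shRBM15#2 line, a log2 fold change of -0.93 (SE 0.23, edgeR adjusted p = 0.0908). The megakaryocyte markers differed in direction: of the 7 tested, 4 had a log2 fold change above 0 and 3 below 0. ITGA2B was at 919, 476 and 607 CPM and GATA1 at 71.7, 64.2 and 66.0 in the same order. ITGB3 was at 6.28, 17.9 and 51.8 CPM, PPBP at 2.38, 6.12 and 56.9, and VWF at 0.364, 2.39 and 0.901. For ITGB3 and PPBP the 2 lines were far apart. PF4 and GP9 had at most 5 reads in any library. All 8 erythroid markers were above the control in both lines, where 39.7% of all genes were. Of the 8, 4 passed for a higher level (edgeR adjusted p under 0.01), where 17 of the 24887 genes tested did. The summed level of the 8 markers was 897 CPM in the control against 4261 and 4215, and its part in the results below was not tested. T cell markers summed to 3.14 to 3.64 CPM, B cell markers to 1.41 to 3.04, and monocyte and granulocyte markers to 27.6 to 55.5.

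Per length of exon, 4 of the 7 genes were well expressed and 2 were close to silent. In the control, SLC16A1 stood highest at 44.4 RPKM (CPM per kb of exon bins), followed by BSG at 38.9, SLC2A1 at 29.4, SLC2A3 at 18.9, SLC16A7 at 4.63, SLC16A3 at 0.227 and SLC2A14 at 0.0507. In the knockdown lines the order at the top differed. SLC2A1 was at 70.1 in the shRBM15#1 line and 59.7 in the shRBM15#2 line, a range that overlapped that of SLC16A1 at 60.3 and 63.2, so these neighbours did not differ beyond their spread. BSG, at 34.03 and 47.4, lay below both of them and above SLC2A3, at 17.7 and 16.7. SLC16A7, SLC16A3 and SLC2A14 kept separate ranges below these, at 4.54 to 4.87, 0.377 to 0.422 and 0.151 to 0.208. The control is a single library, and the spread of its order could not be measured. A read pair is counted in every bin it touches, which raises the level of genes cut into many short bins. BSG bin 021, of 7 bases, held 374 control reads, so the order between genes is approximate.

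**Figure D1:**
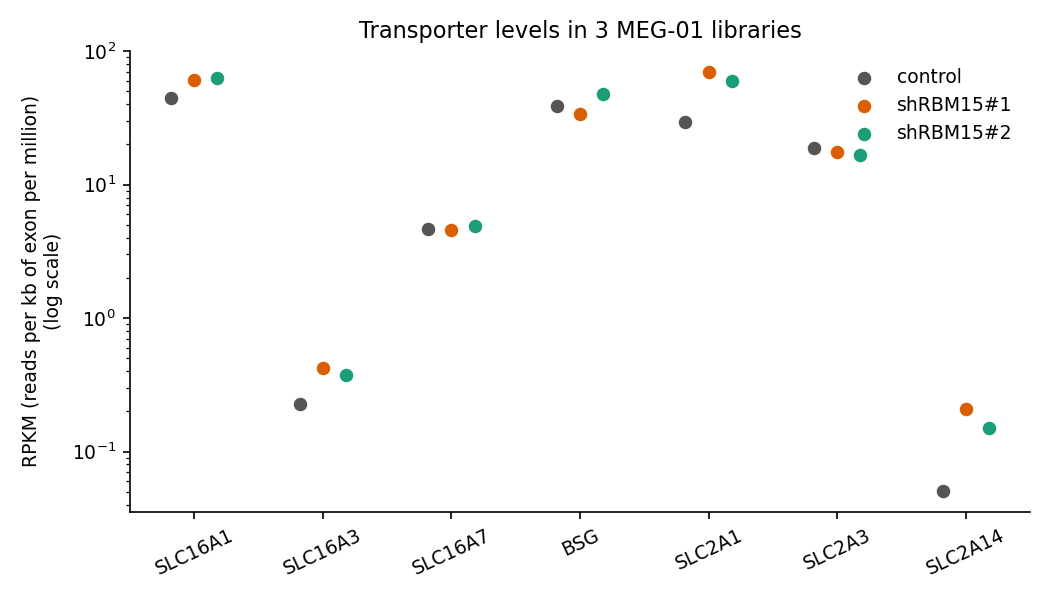
Level of each gene in RPKM, on a log scale, in the control and in both knockdown lines, with 1 point per library. SLC2A1 moves from 29.4 in the control to 70.1 and 59.7, the range of SLC16A1 at 60.3 and 63.2, while SLC16A3 and SLC2A14 stay below 1 in all 3 libraries.

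Of the 6 genes other than SLC16A1, 0 passed an adjusted p under 0.01 in the quasi-likelihood test of edgeR with Benjamini-Hochberg adjustment over all genes, against 0.346% of the 24887 genes tested. DESeq2 called 0 of the 6 at the same limit, against 1.94% of all genes. At an unadjusted p under 0.05 in edgeR, 2 of the 6 passed, SLC2A1 and SLC2A14, both with more reads after knockdown, where 9.61% of all genes passed in that direction. Over all genes tested, the log2 fold change had a median of 0.017.

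SLC16A1 (ENSG00000155380), on the minus strand at chr1:113454469-113499635 of GRCh37, had 14132 reads in the control, 17392 in the shRBM15#1 line and 21213 in the shRBM15#2 line. This was 286, 388 and 407 CPM, with both lines above the control. The log2 fold change was 0.48, and 0.44 and 0.51 for each line alone. These values belong to the contrast that led to the choice of the group and carry no p and no SE.

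The bin behind that choice was bin 014, a 165-base untranslated first exon at chr1:113478446-113478610 that belongs to the transcript ENST00000443580 alone. It held 117 reads in the control, 14 in the shRBM15#1 line and 17 in the shRBM15#2 line, or 2.36, 0.313 and 0.326 CPM. Both lines were close together and far below the control, while the rest of the gene went the other way, at 283, 388 and 406 CPM. Bin 014 took 0.828% of the reads of the gene in the control, 0.0805% in the shRBM15#1 line and 0.0801% in the shRBM15#2 line. Its log2 fold change relative to the rest of the gene was -3.36, and -3.35 and -3.36 for each line alone.

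Most first-exon reads of SLC16A1 fell on another first exon, 20046 bases upstream of bin 014. Its bins 015 to 019 held 1229 reads in the control, 1576 in the shRBM15#1 line and 1999 in the shRBM15#2 line, or 24.8, 35.2 and 38.3 CPM. The mean of the lines over these upstream bins was 1.48 times the control, against 0.135 times for bin 014. Bins 017 and 018 were at 1.55 and 1.54 times the control, and bins 015, 016 and 019 at 1.09, 1.03 and 1.07 times. Of the reads in first-exon bins 014 to 019, bin 014 held 8.69% in the control, 0.881% in the shRBM15#1 line and 0.843% in the shRBM15#2 line. A read pair is counted in every bin it touches, so these shares are of bin counts. They carry no interval because bin 014 led to the choice of the genes. Both first exons are spliced to the second exon, which lies in bin 012. It holds the start codon at chr1:113471928-113471930 in the 6 of 9 annotated transcripts that have a start codon. The transcript of bin 014, ENST00000443580, is annotated in bin 006 but not in the coding bins 002, 003 and 005. Its coding sequence could therefore not be compared over the full length.

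The splice junctions of these exons are shown because they are where the alternatives diverge, each with 15 bases on either side of the exon border, read on the minus strand from GRCh37. Capitals mark the first bases (GT) or the last bases (AG) of the intron. The first lies at chr1:113478431-113478460, the second at chr1:113498642-113498671 and the third at chr1:113471960-113471989.
donor of the alternative first exon: ttgaagacataatagGTgagaatttttcaa
donor of the upstream first exon: tccgcgcatataacgGTtagttgggtaaca
acceptor of the second exon: ttttatgtctttcAGatatttggatttgac
The intron after the alternative first exon spans 6471 bases and the intron after the upstream donor shown 26682 bases, and both end at the same acceptor.

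The neighbours of bin 014 stayed closer to the whole gene. Bin 013, an exon without coding sequence, had 5, 7 and 4 reads in the control, shRBM15#1 and shRBM15#2 libraries and was too low to test. Bin 015, an extension of the upstream first exon, had 60, 73 and 53 reads and a relative log2 fold change of -0.35 (SE 0.25). For the shRBM15#1 and shRBM15#2 lines alone it was -0.02 and -0.76. The most used upstream bins 017 and 018 had 509, 695 and 852 reads and 548, 719 and 946 reads, with relative changes of 0.15 in both. Bin 019, the outermost stretch of that exon, had 96, 72 and 133 reads and -0.38 (SE 0.22), with -0.71 and -0.12 for each line alone. Bin 020, a separate first exon that overlaps the antisense gene SLC16A1-AS1, was at 0 in all 3 libraries. The counting did not use strand and set aside 1010987 to 1105337 reads per library as ambiguous. Whether reads of bin 020 were among them could not be told, so its 0 is not a measure of that exon. The bin with the most reads, bin 002 with the end of the coding sequence and the 3′ UTR, had 5522, 6683 and 7996 reads and a relative change of -0.04 (SE 0.18). Outside bin 014, the 16 tested bins of SLC16A1 lay between -0.44 and 0.15 in relative log2 fold change.

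**Figure D2:**
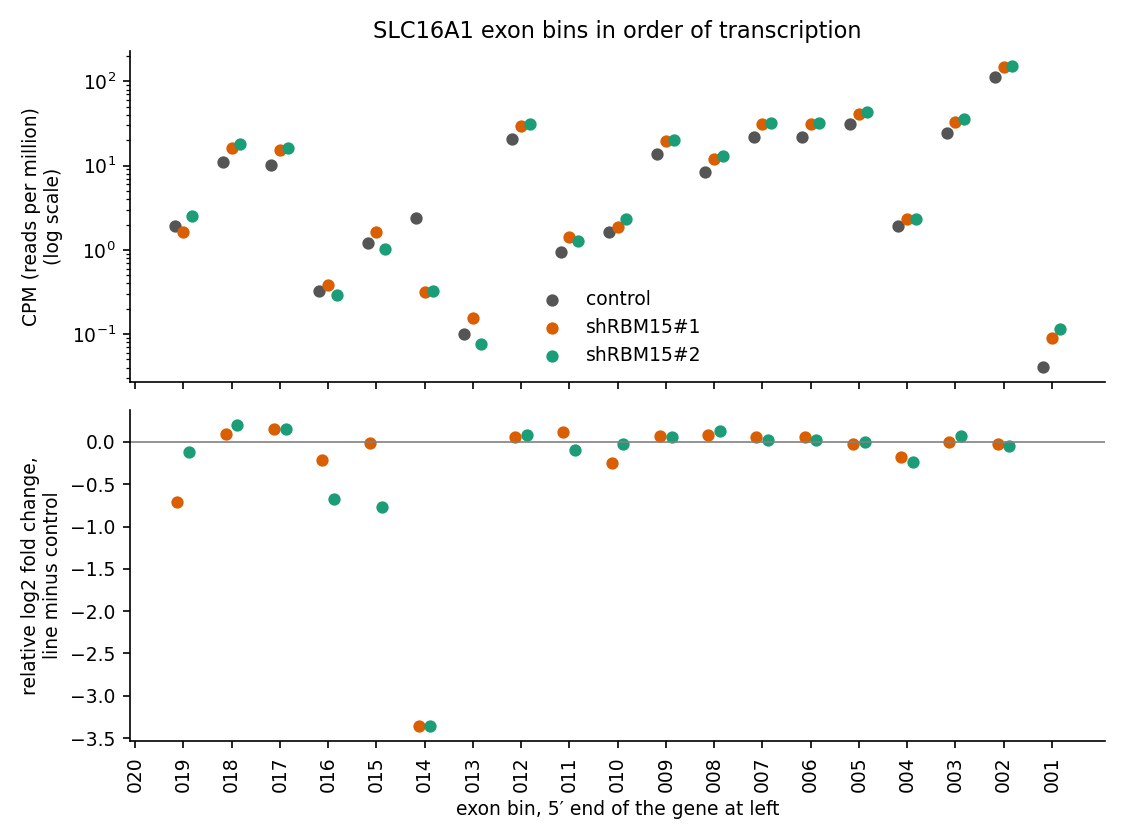
Exon bins of SLC16A1 in order of transcription, with CPM on a log scale in each library above (bins at 0 have no point) and the log2 fold change of each tested bin relative to the rest of the gene, for each knockdown line alone, below. Bin 014 falls from 2.36 CPM in the control to 0.313 and 0.326 while the bins on either side with 500 or more reads lie above the control.

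The bins of other genes with the most similar pattern, by Euclidean distance in the relative log2 fold changes of the 2 lines over 139642 bins with at least 50 control reads, lay in TMBIM6, ZFAND1, DUXAP10, HSP90AA1 and the unnamed gene ENSG00000266658. TMBIM6 bin 028 was nearest, with 86 reads in the control, 10 in the shRBM15#1 line and 11 in the shRBM15#2 line at a distance of 0.851. ZFAND1 bin 054 had 202, 8 and 18 reads at a distance of 1.09, and DUXAP10 bin 002 had 67, 7 and 12 reads at 1.10. HSP90AA1 bin 027 followed with 51, 23 and 37 reads at 1.47, and ENSG00000266658 bin 002 with 50, 9 and 9 reads at 1.80.

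SLC16A3 (ENSG00000141526, chr17:80186273-80219005, plus strand), the lactate exporter, was near the lower end of what these libraries could measure. It had 101 reads in the control, 170 in the shRBM15#1 line and 177 in the shRBM15#2 line, or 2.04, 3.80 and 3.39 CPM. Both lines were above the control, but the log2 fold change of 0.82 (SE 0.41, 95% interval -0.12 to 1.75) did not pass (edgeR adjusted p = 0.323). Among the 3873 tested genes with a mean of 50 to 200 reads, the median log2 fold change was -0.03. The last bin of the gene, bin 052, held the most of its control reads, with 26, 18 and 17, which was 25.7% of the gene in the control against 10.6% and 9.60% in the lines. It lies within the span of CSNK1D on the opposite strand, and since the counting did not use strand, its reads cannot be assigned to either gene. Its relative log2 fold change was -1.11 (SE 0.58, edgeR adjusted p = 1).

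SLC16A7 (ENSG00000118596, chr12:59989848-60176395, plus strand), the high-affinity carrier, had 1472 reads in the control, 1307 in the shRBM15#1 line and 1632 in the shRBM15#2 line. At 29.7, 29.2 and 31.3 CPM, the control lay between the lines. The log2 fold change was 0.02 (SE 0.25, 95% interval -0.55 to 0.60, edgeR adjusted p = 0.973), which leaves room for a moderate change either way. Its first-exon bin 003 had 43, 27 and 44 reads and a relative log2 fold change of -0.28 (SE 0.33). Within its 3′ UTR the bins differed in sign. Bin 042 had 77, 99 and 136 reads, with a relative change of 0.61 (SE 0.26) and the smallest p of the tested bins of the 7 genes outside bin 014 (edgeR adjusted p = 1), while bin 044, the longest and most read, had 408, 333 and 399 reads and -0.15 (SE 0.20).

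BSG (ENSG00000172270, chr19:571297-583493, plus strand), the chaperone, had 7255 reads in the control, 5743 in the shRBM15#1 line and 9331 in the shRBM15#2 line. The control, at 147 CPM, again lay between the lines, at 128 and 179. The lines gave log2 fold changes of -0.19 and 0.29 alone and 0.07 together (SE 0.26, 95% interval -0.53 to 0.66, edgeR adjusted p = 0.919). BSG has a long isoform with an extra immunoglobulin domain, known from the retina. The 348-base bin 010 at chr19:577774-578121, an exon between the common first exon and the exons shared by all forms, had 7 reads in the control, 6 in the shRBM15#1 line and 6 in the shRBM15#2 line, at most 0.104% of the reads of the gene. The common first-exon bin 006 had 413, 291 and 520 reads, a relative log2 fold change of -0.09 (SE 0.29). The bin with the most reads, bin 027, had 1070, 964 and 1696 reads and the largest relative change in the gene, 0.25 (SE 0.28).

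SLC2A1 (ENSG00000117394, chr1:43391052-43424530, minus strand), the glucose transporter of red cells and many cultured cells, had the largest difference among the well-expressed genes. It had 6115 reads in the control, 13209 in the shRBM15#1 line and 13107 in the shRBM15#2 line, or 124, 295 and 251 CPM. Both lines were far above the control and close to each other. The log2 fold change was 1.14 (SE 0.24, 95% interval 0.59 to 1.69), which is 2.21-fold, with 1.26 and 1.02 for each line alone. It missed the limit of 0.01 in edgeR (adjusted p = 0.059) and in DESeq2 (adjusted p = 0.0117), and over the alternatives its adjusted p lay between 0.0117 and 0.0622. SLC2A1 was at place 491 of all genes by p in edgeR, and 20.7% of all genes tested had a log2 fold change at least as large in either direction. The erythroid markers were higher in the same lines, with the summed levels given above.

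The difference in SLC2A1 ran along the whole transcript. In all 21 tested bins both lines were above the control in CPM, and over the 14 bins with at least 100 control reads the mean of the lines was 2.07 to 2.47 times the control. The coding first-exon bin 019 had 356 reads in the control, 729 in the shRBM15#1 line and 708 in the shRBM15#2 line. At the other end, the 3′ UTR bin 001, with the most reads, had 945, 2088 and 2120. Relative to the rest of the gene, these bins had log2 fold changes of -0.09 (SE 0.28) and 0.05 (SE 0.28). The widest relative values in the gene, -0.36 in bin 006 and 0.51 in bin 018, rested on 19 and 16 control reads.

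SLC2A3 (ENSG00000059804, chr12:8071826-8088871, minus strand), the high-affinity glucose transporter of neurons and platelets, had 5772 reads in the control, 4873 in the shRBM15#1 line and 5379 in the shRBM15#2 line. At 117, 109 and 103 CPM, both lines were below the control by a small margin. The log2 fold change of -0.14 (SE 0.22, 95% interval -0.64 to 0.36) did not pass (edgeR adjusted p = 0.78). Its interval and that of SLC2A1 did not overlap, though the difference between the 2 genes was not itself tested. The first-exon bin 027 had 390, 284 and 339 reads (relative log2 fold change -0.16, SE 0.23) and the most read bin 005, in the 3′ UTR, had 1112, 948 and 982 (-0.03, SE 0.22). Its lowest bins, 003 and 004 in the 3′ UTR, were at -0.40 (SE 0.26) and -0.39 (SE 0.26), and its highest, bin 025, was at 0.78 (SE 0.42) with 22, 21 and 48 reads.

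SLC2A14 (ENSG00000173262, chr12:7965108-8043744, minus strand), the duplicate of SLC2A3, had 14 reads in the control, 52 in the shRBM15#1 line and 44 in the shRBM15#2 line, or 0.283, 1.16 and 0.843 CPM. Both lines were above the control, and the log2 fold change of 1.81 had a wide interval (SE 0.68, 95% interval 0.28 to 3.35, edgeR adjusted p = 0.21). Among all 9652 tested genes with a mean of 10 to 50 reads, the median log2 fold change was 0.55, with 0.75 for the shRBM15#1 line and 0.27 for the shRBM15#2 line, while among the 5169 genes with a mean of 1000 to 5000 reads it was -0.14. The longest coding sequences of SLC2A3 and SLC2A14 were identical at 1441 of 1488 aligned bases (96.8%). Over all annotated transcripts of each gene, 16.4% of the distinct 50-base stretches of SLC2A14 also occurred in SLC2A3. SLC2A3 had over 100 times as many reads in the control, so the SLC2A14 count is uncertain. None of its 53 bins had enough reads for a test of bin usage.

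**Figure D3:**
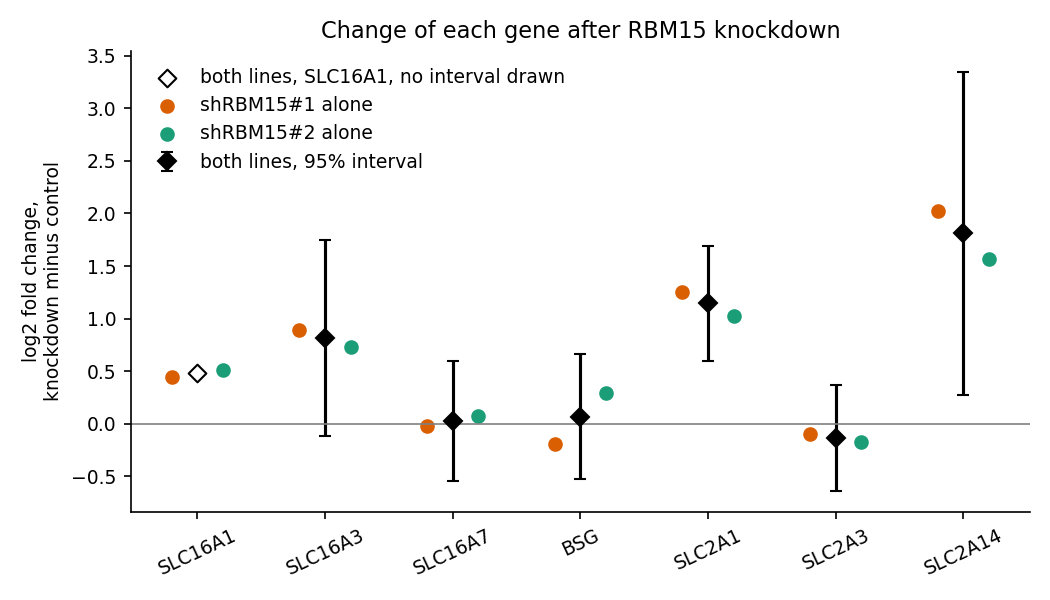
Log2 fold change of each gene, knockdown minus control, for both lines in 1 fit (diamonds, with 95% intervals from the quasi-likelihood fit of edgeR) and for each line alone (circles). SLC2A1 lies at 1.14 with an interval of 0.59 to 1.69 and both lines above 1, the lines of BSG fall on either side of 0, and SLC16A1 has no interval because its contrast led to the choice of the genes.

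Outside SLC16A1 bin 014, 0 exon bins of the 7 genes passed the test of bin usage, a share near that of all bins. Of the 251 bins, 231 had a read and 103 had enough reads for the test. Of the 102 without bin 014, 0 passed the limits of the study (unadjusted p under 0.05 and a fold above 1.2) in edgeR, against 1.45% of the 234192 bins tested, and 0 passed an unadjusted p under 0.05 alone. A DEXSeq-type model in DESeq2 called 0 of the 102 at the same limits, against 2.21% of all bins. At an adjusted p under 0.05, edgeR called 0 of the 102, against 0.0205% of all bins. The median size of the relative log2 fold change was 0.14, and 81 of the 102 bins lay within 0.3 of 0, among them all 18 of BSG, 18 of 21 of SLC2A1 and 0 of 3 of SLC16A3. With 1 control and a spread taken from 2 lines, changes of this size in single bins were not detectable.

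**Figure D4:**
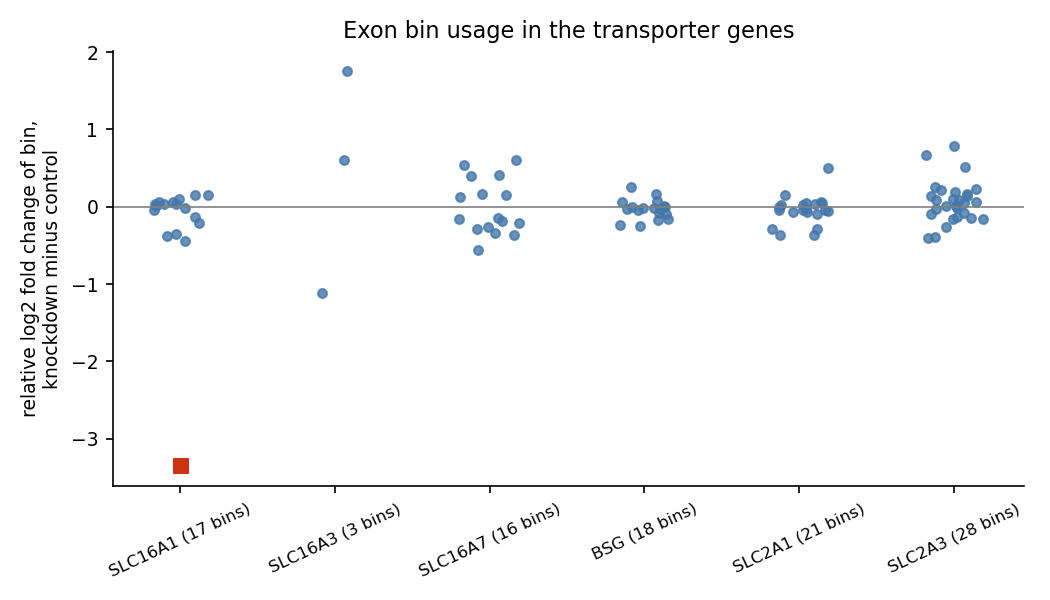
Log2 fold change of each tested exon bin relative to the rest of its gene, knockdown minus control, with 1 point per bin and the number of tested bins after each gene. The red square is SLC16A1 bin 014 at -3.36, and the other bins of SLC16A1, BSG and SLC2A1 lie between -0.44 and 0.51.

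Among the other members of both transporter families, SLC16A9 rose. This gene, a carrier of carnitine and creatine, had 215 reads in the control, 1472 in the shRBM15#1 line and 1278 in the shRBM15#2 line (log2 fold change 2.72, SE 0.34, edgeR adjusted p = 0.00908). The call was lost at a minimum of 300 reads (adjusted p = 0.0324), and over the alternatives its adjusted p ran from 1.85e-10 to 0.0324. Of 11 other SLC16 genes, 9 had enough reads, 1 passed for a higher level and 0 for a lower one, and the median log2 fold change was 0.76. Over all genes tested, 0.346% passed in either direction. SLC16A10, a carrier of aromatic amino acids, had 621, 750 and 1178 reads (0.65, SE 0.31, edgeR adjusted p = 0.303). SLC16A4, whose substrate is less well known, had 318, 100 and 85 reads (-1.74, SE 0.39, edgeR adjusted p = 0.0709), with both lines below the control. Of 11 other SLC2A genes, 10 had enough reads and 0 passed in edgeR or DESeq2, with a median of 0.26. At an unadjusted p under 0.05 in edgeR there were 2, 1 higher and 1 lower, where 18.8% of all genes passed. The most read of the 10 was SLC2A13, a myo-inositol carrier, with 582, 523 and 671 reads (0.06, SE 0.30). It was followed by SLC2A8 with 161, 260 and 181 and SLC2A9, which carries urate, with 194, 155 and 235. The largest differences at a mean of at least 100 reads were those of SLC2A6, with 53, 153 and 148 reads (1.54, SE 0.46, edgeR adjusted p = 0.14), and SLC2A11, with 217, 153 and 114 (-0.65, SE 0.42).

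Among the enzymes that make and use the carried substrates, the most read lactate dehydrogenase genes, LDHB and LDHA, had small differences and GPT2 had a large one. Of 23 genes of lactate and pyruvate handling, 22 had enough reads and 0 passed in edgeR, against 0.346% of all genes. In edgeR 3 had an unadjusted p under 0.05 (2 higher, 1 lower), where 18.8% of all genes had one. DESeq2 called 1, against 1.94% of all genes, and the median log2 fold change of the list was 0.11. The most read of the list were LDHB with 93235, 76084 and 97120 reads (-0.08, SE 0.22) and LDHA with 50968, 48994 and 60184 (0.13, SE 0.22). The other lactate dehydrogenase genes had a mean of at most 45 reads, with log2 fold changes from -0.49 in LDHD to 1.63 in LDHC. PDHA1, of the pyruvate dehydrogenase complex, was at -0.01 (SE 0.23). GPT2, the mitochondrial enzyme that interconverts pyruvate and alanine, had 6981 reads in the control against 2269 and 2406, a log2 fold change of -1.54 (SE 0.22) that missed the limit in edgeR (adjusted p = 0.0137) and passed it in DESeq2 (adjusted p = 1.22e-04), with a range of 1.13e-05 to 0.037 over the alternatives. PDHB had 5025, 6836 and 7417 reads (0.54, SE 0.23, edgeR adjusted p = 0.251).

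All 21 genes of glucose entry and its control had enough reads, with a median log2 fold change of -0.03. In edgeR 1 passed, for a higher level, against 0.346% of all genes in either direction. At an unadjusted p under 0.05 in edgeR there were 3 higher and 3 lower, where 18.8% of all genes passed. The gene past the adjusted limit was EGLN3, a prolyl hydroxylase of hypoxia-inducible factors and itself induced by hypoxia. EGLN3 had 261 reads in the control, 2471 in the shRBM15#1 line and 2279 in the shRBM15#2 line (3.23, SE 0.32, edgeR adjusted p = 0.00324). This call too was lost at a minimum of 300 reads (adjusted p = 0.0222), at which edgeR called no gene, and its adjusted p ran from 4.27e-17 to 0.0222 over the alternatives. TXNIP, an inhibitor of glucose uptake that acts on SLC2A1 among others, was the most read of the list, with 37707 reads in the control, 11608 in the shRBM15#1 line and 13959 in the shRBM15#2 line. Both lines were far below the control. Its log2 fold change of -1.53 (SE 0.21) missed the limit in edgeR (adjusted p = 0.0128) and passed it in DESeq2 (adjusted p = 6.44e-05), with a range of 5.37e-06 to 0.0334 over the alternatives. MYC had 21042, 16786 and 17134 reads (-0.27, SE 0.22) and the hexokinase HK1 12872, 20164 and 14402 (0.48, SE 0.31). HK3, a hexokinase of myeloid cells, had 256, 270 and 2977 reads, so that its log2 fold change of 2.61 (SE 1.05, edgeR adjusted p = 0.234) came from the shRBM15#2 line, at 3.46 alone, against 0.22 in the shRBM15#1 line.

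**Figure D5:**
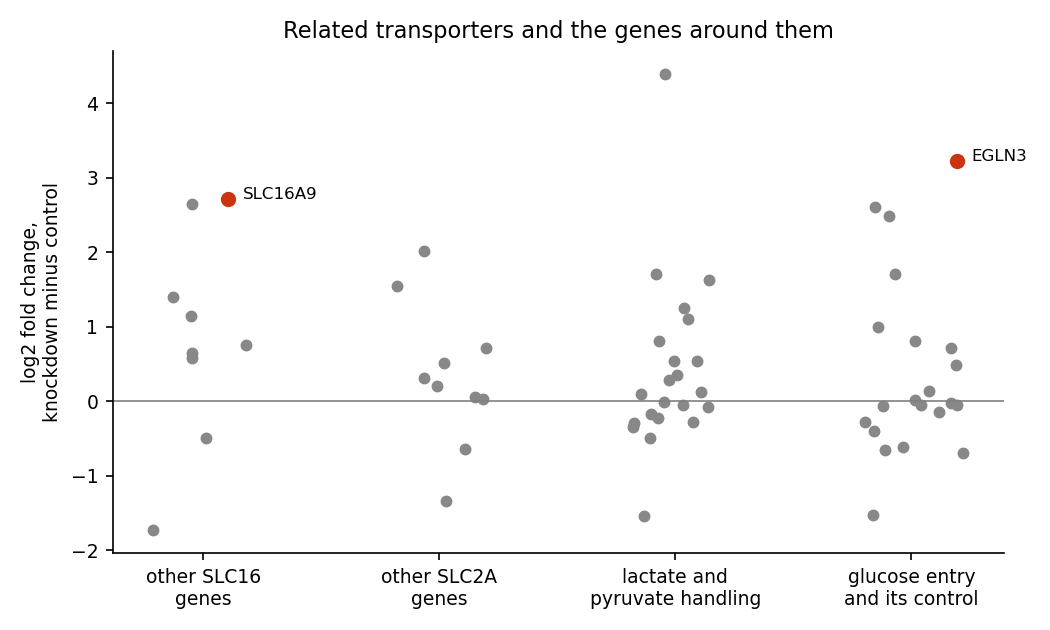
Log2 fold change of every gene with enough reads in the lists of other SLC16 genes, other SLC2A genes, lactate and pyruvate handling, and glucose entry and its control, with genes past an adjusted p of 0.01 in red. SLC16A9 at 2.72 and EGLN3 at 3.23 are the genes that passed, and the highest point of all, PDK4, rests on 1 read in the control.

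RNA immunoprecipitation with an anti-RBM15 antibody gave a list of 1515 significant sites, of which 0 were annotated to any of the 7 genes. Of the 24122 genes tested for expression that had a symbol, 3.76% had a site, so that 0 of 7 is near the share over all genes. One site at chr17:80217982-80218408 lies within the span of SLC16A3 and is annotated to an intron of CSNK1D. Of the lists above, lactate and pyruvate handling had 6 sites, in GPT2, LDHA, LDHB, PDHA1 and PDHB, and glucose entry 2 sites, in EGLN2 and HK1. The list holds passing sites only, so a gene without a site may still have been bound below the limit.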

How the data were processed

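Paired RNA-seq reads without strand were aligned by the authors to GRCh37 (STAR), and raw counts were deposited for each exon bin of Ensembl GRCh37.70. No source used here names the counter. A pair is counted in each bin it touches: SLC2A1 bins 020 (1 base) and 021 hold equal counts in every library. Their DEXSeq table repeats the counts (identical in all 1875444 cells compared, 809 wrapped lines left out) and adds log2 fold changes and p-values, which were not used. The RIP-seq list, tested by the authors with DESeq, was used for the position and annotation of its sites only. In it, labels and columns of some libraries conflict.

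Lines naming no gene (5 per file, 23.2% to 32.0% of reads) were left out. Bins were summed per gene. Genes and bins with 30 or more reads in all were tested with edgeR 4.0.16 in R 4.3.3 (TMM, factors 0.931, 1.08 and 0.996; glmQLFTest at an adjusted p under 0.01; diffSpliceDGE for bins). DESeq2 1.42.0 gave the alternatives. The scripts were tested on simulated data. With 1 control, the spread comes from 2 knockdown lines and covers these libraries only. A relative log2 fold change compares a bin with the rest of its gene. Symbols and exon classes came from GENCODE v44 lifted to GRCh37 (54481 genes matched by identifier). TXNIP, whose identifier lies on a patch contig with no reads, was taken from ENSG00000117289 on chromosome 1, whose span overlaps the annotated gene by 99.5%. The genes and lists were chosen with earlier results of these data known. Named were all 7 genes, their bins past the limits, the main first-exon and most-read bins and the neighbours of bin 014, and from each list the genes called, the 3 most read and the 2 with the largest change at a mean of at least 100 reads. Bins given as the extremes of a gene, BSG bin 010 and PDK4 were added after their values were seen.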

Additional observations from a re-analysis of the deposited data

How the results depend on the processing

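No paired analysis was possible because there was 1 control library, so the groups share fewer than 2 replicate numbers. Of the 6 genes other than SLC16A1, 0 were called under every setting run. Genes called over the whole table numbered 86 (17 higher) with TMM, 191 (53 higher) with DESeq2 size factors, 801 (275 higher) with no filter on low counts, 0 with a summed count of at least 300, and 484 (182 higher) in DESeq2. With no filter the log2 fold change over all genes had a median of 0.44, and SLC16A7 turned to -0.11 and BSG to -0.059. With a summed count of at least 300, SLC2A3 turned to 0.0071 and SLC2A14 could not be tested. SLC2A1 kept its direction, with log2 fold changes of 1.02 to 1.26 when either line was left out. It missed the limit in the settings that gave a p. With a summed count of at least 300 no gene passed, so that setting could not move it across the limit. Without either line, SLC16A7 lay between -0.03 and 0.07 and BSG between -0.19 and 0.29. Bins past the limits of the study numbered 3392 with at least 30 reads, 8733 with at least 1, 736 with at least 300, and 5174 in the DEXSeq-type model. With bins of at least 1 read, 3 bins of the 7 genes outside bin 014 passed, SLC16A3 bins 026, 049 and 052, the first of them on 0 control reads. SLC16A1 bin 014 was at -3.38 in the DEXSeq-type model and between -3.36 and -3.35 without either line, and had too few reads for the minimum of 300. The causes were not tested.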

Other observations

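SLC16A1-AS1, a noncoding gene that starts beside the upstream first exon of SLC16A1 and runs the other way, had 319 reads in the control, 216 in the shRBM15#1 line and 168 in the shRBM15#2 line, or 6.45, 4.82 and 3.22 CPM. Both lines were below the control, opposite to SLC16A1, but its log2 fold change of -0.68 (SE 0.39) did not pass (edgeR adjusted p = 0.377). Its bin 005, which shares an exon stretch with SLC16A1 in the newer annotation, had 70, 26 and 22 reads and a relative log2 fold change of -0.85 (SE 0.46, edgeR adjusted p = 1). The counting did not use strand, so reads of SLC16A1 and of its antisense gene cannot be told apart there. These values were picked after they had been seen.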
